A study of Mus musculus with 9 samples.

Results

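The Rab GTPases described here are the 47 genes whose symbol is Rab followed by a number and at most a letter and a further digit, out of 14862 genes in the deposited table. The symbol pattern matched 52 genes, and 5 of them (Rab43, Rab7b, Rab27a, Rab11a and Rab14) were left out of the family as taken here. The rule reads symbols only. RNA was sequenced from spleen dendritic cells of C57Bl/6 mice aged 8 to 12 weeks in 3 groups of 3 libraries each, named cDC1, cDC2 and mcDC in the labels. No genotype beyond the strain and no treatment is named for any group. cDC1 and cDC2 are the conventional dendritic cell types known mainly for presenting antigen to CD8 T cells and to CD4 T cells, respectively. The labels do not expand mcDC, and no source used here gives the surface markers by which the cells were sorted.

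Rab proteins are small GTPases that mark the identity of intracellular membranes. In the GTP-bound form each recruits effectors, such as tethers, motors and lipid kinases, to its own compartment, and in the GDP-bound form it is extracted from the membrane by a chaperone. Exchange factors load GTP and GTPase activating proteins end the active state. In dendritic cells Rab proteins are known for routing engulfed antigen through endosomes and phagosomes and for the traffic of MHC molecules.

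Levels are given in RPKM, reads per kilobase of gene length and per M reads, which can be compared between genes. The 9 libraries held 5.14 to 12.43 M reads, with the lowest totals in the 3 mcDC libraries (8.22, 5.56 and 5.14 M in replicates 1, 2 and 3). mcDC replicate 3 stood apart, at 73.6 on the second principal component of all tested genes against -20.8 to 6.5 for the other libraries, and had the largest share of genes at 0 (12.35% against 2.71% to 6.47%). Called differences of mcDC given below for Rab members and for their regulators and effectors are also given without it. Those of cell type markers and of the Rab genes left out of the family are not. The defining markers fitted the labels of cDC1 and cDC2. The 8 cDC1 markers summed to 1681 to 2042 RPKM in cDC1, 203.9 to 252.6 in cDC2, and 433.5 to 879.8 in mcDC, and the 7 cDC2 markers to 35.6 to 112.1, 637 to 647.7 and 265.6 to 471.4. Within cDC1, replicate 1 had the highest sum of cDC2 markers, 112.1 RPKM against 35.6 and 38.8 in replicates 2 and 3. It also had the lowest sum of cDC1 markers, 1681 against 2042 and 2020. The part of this in the results was not tested. Markers of other cells differed between the groups too. The 9 macrophage and monocyte markers in the table summed to 265.2 to 349.1 RPKM in cDC1, 1219 to 2160 in cDC2 and 629.4 to 774 in mcDC, none of them at 0 in any library. In cDC2 Lyz2 made up most of that sum, and single markers differed in order: between mcDC and cDC2, 3 of the 9 were called higher in mcDC (Mertk, Cd5l and Vcam1) and 1 lower (Lyz2). The 8 neutrophil markers summed to 9.72 to 44.2 in cDC1, 125 to 1563 in cDC2 and 1.41 to 42.8 in mcDC, and the 6 NK cell markers to 32.8 to 53.1, 24.3 to 43.3 and 58.8 to 145.7. B cell markers summed to at most 41.7 RPKM, T cell markers to at most 46.6 and platelet and erythroid markers to at most 43.6 in any library, and plasmacytoid dendritic cell markers to 58.9 to 203.6. The part of such cells in the Rab results was not tested, and in bulk samples fewer cells of a type and less RNA per cell cannot be told apart. No label ties a library to its own animal. A p-value here therefore weighs a difference against the scatter of these libraries alone, and that scatter may be technical.

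All 47 members were detected in at least 1 library, and the family spanned more than 3 orders of magnitude. By their mean over the 9 libraries, 8 members were at 50 RPKM or more, 17 between 10 and 50, 14 between 1 and 10, and 8 under 1. The summed level of the 47 members was close between the subsets, at 1192, 1221 and 1213 RPKM in cDC1, 1077, 1147 and 1177 in cDC2 and at 1057, 1181 and 1194 in mcDC. The cDC1 libraries lay above those of cDC2, and cDC1 overlapped mcDC through mcDC replicate 3. Of the 5 genes left out, Rab43 averaged 288, 130 and 147 RPKM in cDC1, cDC2 and mcDC, and Rab7b 112, 8.6 and 47.5. Rab11a also had its highest mean in cDC1, and Rab14 and Rab27a their lowest. The sum of the 47 members therefore does not describe all Rab RNA. Rab7, Rab5c, Rab8a, Rab1b, Rab32 and Rab4b, the 6 members of the highest mean, made up 39.6% to 47.9% of that sum in each library. In the heat map of members by library the same rows are bright in all 9 columns.

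**Figure D1:**
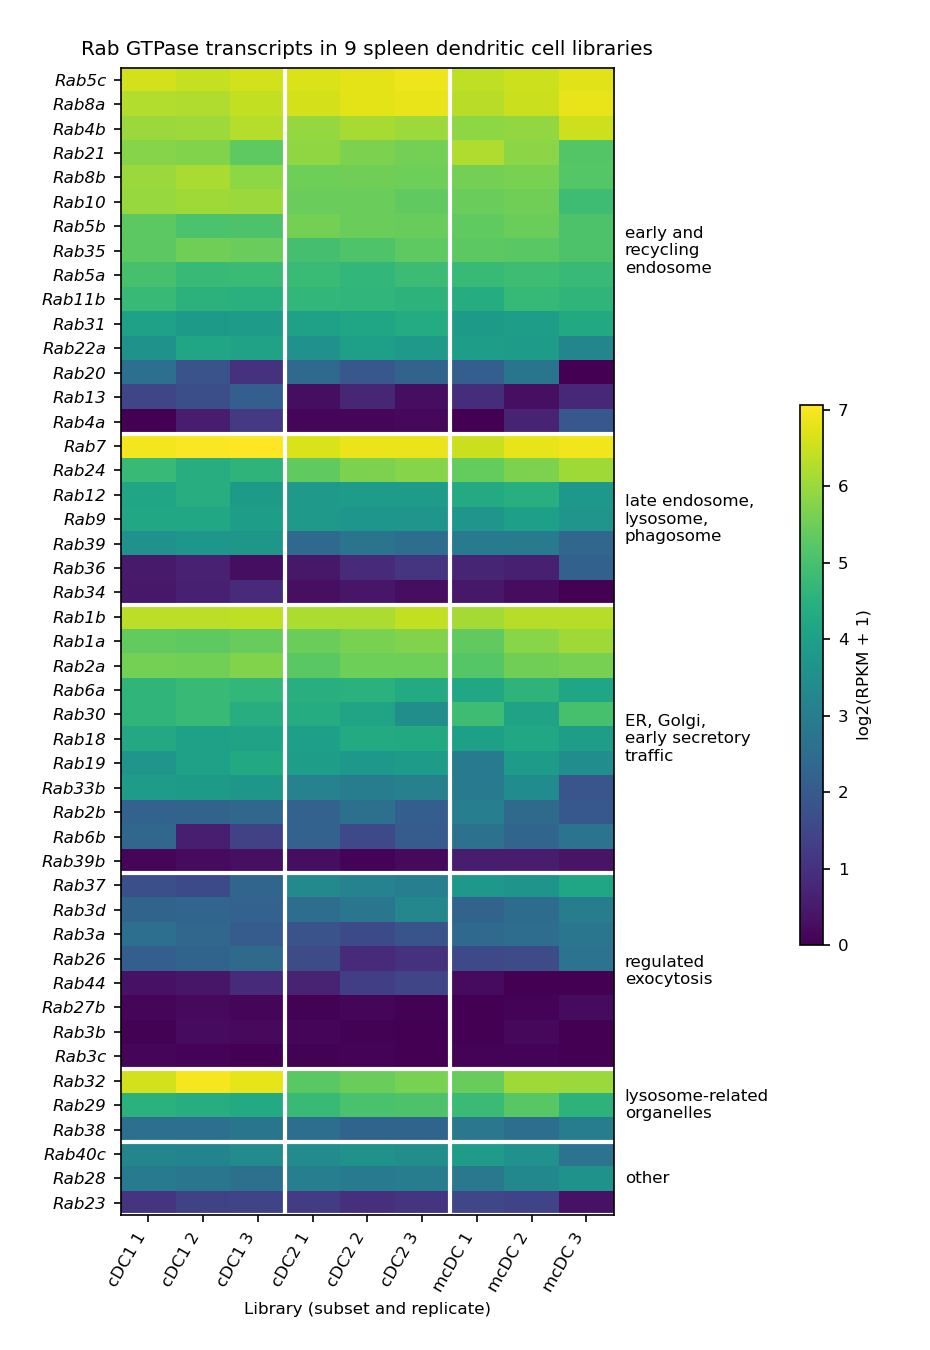
Level of each of the 47 Rab members (rows, grouped by compartment, with Rab29 placed beside its relatives Rab32 and Rab38) in each of the 9 libraries (columns), as log2(RPKM + 1) on the colour scale. Rab7, Rab5c, Rab8a and Rab1b are high in every library, Rab32 is highest in the 3 cDC1 columns, and Rab27b, Rab3b and Rab3c are near 0 throughout.

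Differences were tested with limma on log2(RPKM + 1) over all genes above 1 RPKM in at least 2 libraries, which 42 of the 47 members passed, and a gene is called at a Benjamini-Hochberg adjusted p below 0.05. The 5 members not tested were Rab34, Rab39b, Rab27b, Rab3b and Rab3c, none above 0.817 RPKM in any library. Between cDC1 and cDC2, 9 of the 42 tested members were called (21.4%), beside 19.6% of all 11971 genes tested. Rab10, Rab8b, Rab39, Rab26, Rab32 and Rab13 were higher in cDC1 (background 8.85%), and Rab24, Rab29 and Rab37 were lower (background 10.7%). The libraries of the 2 groups did not overlap for 23 members (54.8%), against 46.1% of all genes. Between mcDC and cDC1, 7 members were called (16.7%, background 15.4%). Rab24 and Rab37 were higher in mcDC (background 9.53%), and Rab10, Rab8b, Rab39, Rab32 and Rab13 were lower (background 5.88%). The libraries did not overlap for 14 members (33.3%, background 30.5%). Between mcDC and cDC2, Rab3a alone was called, higher in mcDC (2.38%, background 3.66%), beside 2.06% of all genes called higher and 1.6% called lower, and the libraries did not overlap for 5 members (11.9%, background 21.6%). With an unadjusted p below 0.05 there were 16, 14 and 6 members in these 3 comparisons, beside 3570, 3474 and 2003 of the 11971 genes. Rab13 is counted among the called members although it passed the filter through its cDC1 libraries alone, so its place there was in part set by the filter. The 3 comparisons share their groups pairwise, so the calls that recur between them are not independent.

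The median log2 difference of the tested members was 0.09 for cDC1 minus cDC2 (all genes -0.02), -0.01 for mcDC minus cDC1 (all genes 0.09) and 0.03 for mcDC minus cDC2 (all genes 0.06). In absolute size the median was 0.3, 0.26 and 0.17, against 0.27, 0.28 and 0.22 for all genes. A difference of at least 1 on this scale was measured in 11.9%, 11.9% and 2.38% of the 42 members, against 12.4%, 10% and 5.28% of all genes. The share of members called in either direction and the median absolute difference were close to those of all genes in the comparisons with cDC1. The split by direction was less so: between mcDC and cDC1 the members without overlap were 3 higher and 11 lower, where all genes were 2339 higher and 1315 lower. Median-of-ratios scaling, which allows for RNA composition, moved the median of all genes by -0.12 in mcDC minus cDC1, and under it the 7 calls of that comparison remained and Rab33b, Rab6a and Rab9 were called lower as well. The counts changed when single libraries were left out, which also leaves fewer libraries to test with. Without cDC1 replicate 2 the count between mcDC and cDC1 was 4. Between cDC1 and cDC2 it was 5 without cDC1 replicate 1, cDC1 replicate 2, cDC2 replicate 2 or cDC2 replicate 3, and 15 without mcDC replicate 3, where Rab8a, Rab33b, Rab3a, Rab3d, Rab5b and Rab9 joined the 9. Between mcDC and cDC2 it was 0 without cDC1 replicate 2 or 3, cDC2 replicate 2 or 3, or mcDC replicate 2 or 3, and 2 without mcDC replicate 1. Without cDC2 replicate 1 Rab44 was called in place of Rab3a. The share of all genes called in these other fits is not given here, so the changes in count cannot be read as particular to the members.

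**Figure D2:**
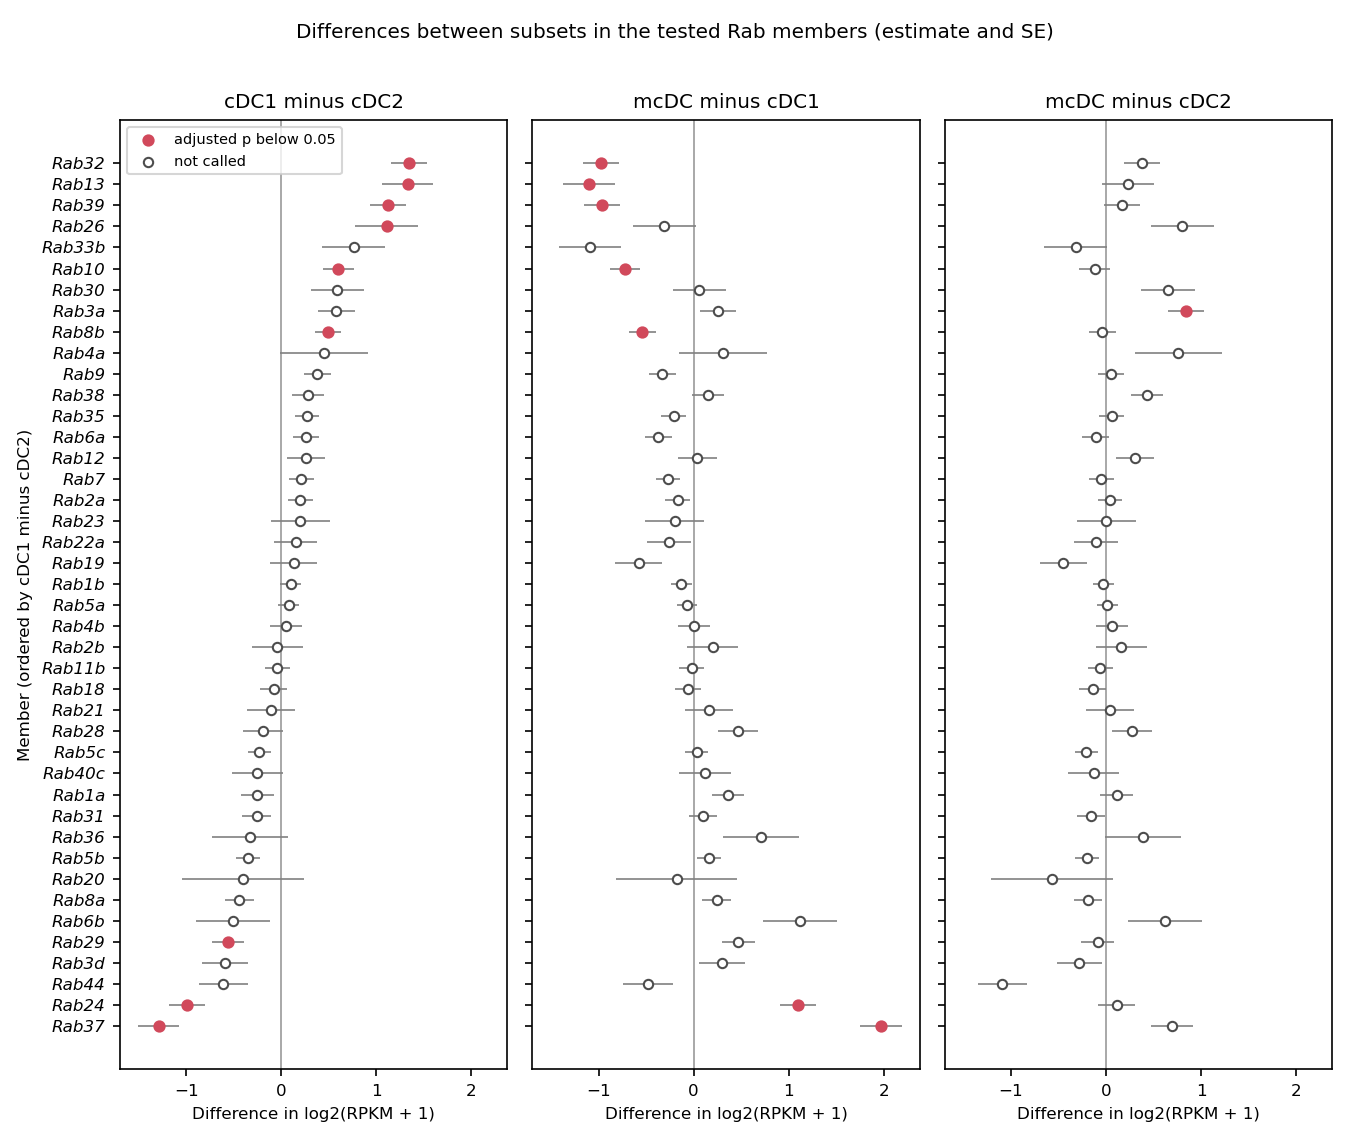
Difference in log2(RPKM + 1) with its standard error for each of the 42 tested Rab members (rows) in the 3 comparisons (panels), with filled points where the adjusted p is below 0.05. Filled points number 9, 7 and 1 from left to right.

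The Rab proteins of early and recycling endosomes made up 15 members, all tested. Against cDC1, 3 of the 15 were lower in mcDC (background 5.88%), and 3 were higher in cDC1 than in cDC2 (background 8.85%). For mcDC against cDC2 none was called with limma (background 3.66%), and none had an unadjusted p below 0.05, beside 2003 of all 11971 genes. Rab5c (Entrez gene 19345), a regulator of early endosome fusion, was at 95, 86.1 and 94.2 RPKM in cDC1 replicates 1, 2 and 3, at 99.4, 108 and 117 in cDC2 and at 82.8, 91.7 and 107 in mcDC. Rab4b (19342), which acts in fast recycling to the cell surface, was at 62.7, 64.4 and 76.2 RPKM in cDC1, 61, 69.8 and 64.4 in cDC2 and at 57.7, 59.3 and 90.6 in mcDC. For Rab5c the cDC1 libraries lay below those of cDC2 by a narrow margin, and for Rab4b all groups overlapped, with the highest value in mcDC replicate 3. Neither was called in any of the 3 comparisons. Rab4a, the close relative of Rab4b, was at 2.75 RPKM or less in every library.

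Rab8b and Rab10 belong, with Rab8a and Rab13, to a branch of the family known for carrying vesicles to the plasma membrane. Rab10 (Entrez gene 19325) was at 61.5, 65.7 and 63.5 RPKM in cDC1, 42.8, 42.7 and 39.5 in cDC2 and at 42.5, 45.6 and 28.5 in mcDC. Rab8b (235442) was at 63, 70.8 and 57 RPKM in cDC1, 44.5, 44.9 and 44.7 in cDC2 and at 47.1, 48.8 and 35.5 in mcDC. For both genes every cDC1 library lay above all 6 others, while cDC2 and mcDC overlapped, and mcDC replicate 3 was the lowest library of all. Rab10 was higher in cDC1 than in cDC2 by 0.6 ± 0.16 (log2, SE, limma adjusted p = 0.028), and mcDC minus cDC1 was -0.72 ± 0.16 (limma adjusted p = 0.015), or -0.52 without mcDC replicate 3 (limma adjusted p = 0.0048). For Rab8b the corresponding differences were 0.49 ± 0.14 (limma adjusted p = 0.034) and -0.54 ± 0.14 (0.029), the latter -0.4 without mcDC replicate 3 (0.03). These calls did not hold in every other fit. Rab10 lost the call against cDC2 without any 1 of the 6 libraries compared (limma adjusted p 0.061 to 0.1), and the call against mcDC without cDC1 replicate 2 (0.068) or 3 (0.056) and with the 2 groups fitted alone (0.057). Rab8b lost the first without cDC1 replicate 1 or 2 or any cDC2 library (0.08 to 0.15) and with no trend (0.057), and the second without cDC1 replicate 1 (0.071) or 2 (0.13) or cDC2 replicate 2 (0.057) or 3 (0.052) and with the 2 groups fitted alone (0.096). An antisense transcript, Rab10os, was listed at 10 to 12.7 RPKM in cDC1, 10.6 to 11.5 in cDC2 and 13.4 to 20.8 in mcDC. Whether counting used strand was not given, so reads from Rab10 and Rab10os cannot be told apart.

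Rab8a (Entrez gene 17274), the paralog of Rab8b, was at 75.4, 74 and 83.9 RPKM in cDC1, 96.4, 108 and 113 in cDC2 and at 78.1, 88.6 and 113 in mcDC. Here the cDC2 libraries lay above those of cDC1, the opposite order to Rab8b, and mcDC spanned both. The difference of -0.44 ± 0.15 for cDC1 minus cDC2 was not called in the fit of all libraries (limma adjusted p = 0.065) and was called without mcDC replicate 3 (0.011). Rab13 (68328), known for traffic to cell junctions, was low everywhere. It was at 1.78, 2.27 and 3.28 RPKM in cDC1, 0.199, 0.689 and 0.196 in cDC2 and at 0.89, 0.22 and 0.712 in mcDC, from 2 to 52 reads a library. All cDC1 libraries lay above the 6 others, and cDC2 and mcDC overlapped. The gene passed the filter only through cDC1, so a higher level there was a condition of being tested. With no filter it was called in both comparisons as well (limma adjusted p = 0.0047 and 0.017). The difference was 1.33 ± 0.27 for cDC1 minus cDC2 (limma adjusted p = 0.0059, a ratio of mean RPKM of 6.75) and -1.1 ± 0.27 for mcDC minus cDC1 (0.021, and -1.16 with 0.019 without mcDC replicate 3). The latter call was lost without cDC1 replicate 2 (0.073), cDC1 replicate 3 (0.092) or mcDC replicate 2 (0.059), with a pseudocount of 0.1 (0.06), with the 2 groups fitted alone (0.057) and with voom on recovered reads (0.063). None of the other 9 members of this group (Rab21, Rab5b, Rab35, Rab5a, Rab11b, Rab31, Rab22a, Rab20 and Rab4a) was called. Among them Rab20, known from phagosomes, spanned values from 0 in mcDC replicate 3 to 5.72 RPKM in mcDC replicate 2.

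**Figure D3:**
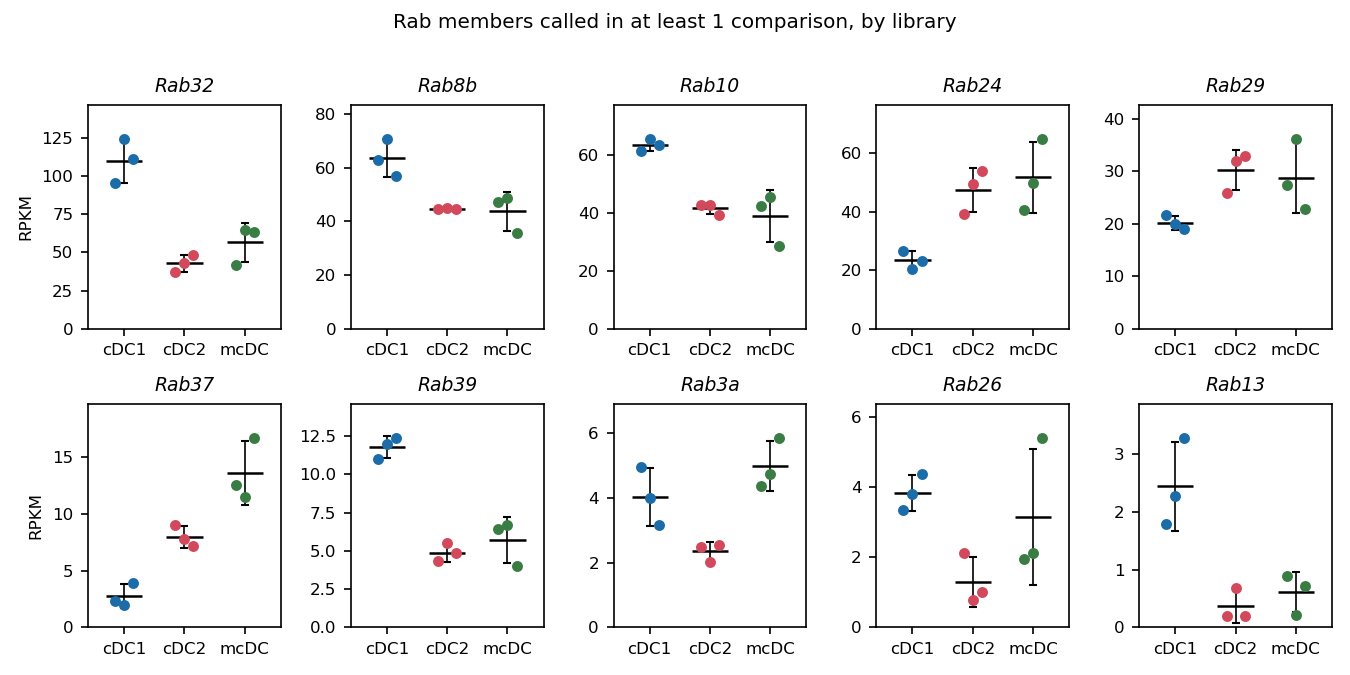
Level in RPKM (vertical axes, each from 0) of the 10 Rab members called in at least 1 comparison, by subset (horizontal axes), with 1 point a library, the mean as a bar and 1 SD as whiskers. The cDC1 points stand above both other groups for Rab32, Rab8b, Rab10, Rab39 and Rab13 and below them for Rab24, Rab29 and Rab37.

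Late endosomes, lysosomes and phagosomes were represented by 7 members, of which 6 were tested. In each comparison with cDC1, 1 of the 6 was called higher and 1 lower (backgrounds 9.53% and 5.88% for mcDC against cDC1, 8.85% and 10.7% for cDC1 against cDC2). Between mcDC and cDC2 none was called with limma (background 3.66%) or had an unadjusted p below 0.05, beside 2003 of all 11971 genes. Rab7 (Entrez gene 19349), which directs fusion of late endosomes and phagosomes with lysosomes, was the most abundant member by its mean. It was at 122, 129 and 133 RPKM in cDC1, 99.4, 115 and 116 in cDC2 and at 89.5, 111 and 119 in mcDC. The cDC1 libraries lay above all others, but the differences of 0.21 ± 0.13 (cDC1 minus cDC2, limma adjusted p = 0.33) and -0.27 ± 0.13 (mcDC minus cDC1, 0.21) were not called. Rab24 (19336), an atypical Rab with low GTPase activity that is linked to autophagy, took the opposite order. It was at 26.7, 20.3 and 23.1 RPKM in cDC1, 39.2, 49.6 and 53.9 in cDC2 and at 40.7, 49.8 and 65 in mcDC. No cDC1 library reached the lowest of the other 6, and cDC2 and mcDC overlapped. Rab24 was higher in mcDC than in cDC1 by 1.1 ± 0.19 (limma adjusted p = 0.0043), a ratio of mean RPKM of 2.22, and 0.93 without mcDC replicate 3 (0.0051). The difference of cDC1 minus cDC2 was -0.99 ± 0.19 (limma adjusted p = 0.005). The sum of macrophage and monocyte markers was also lowest in cDC1 (265.2 to 349.1 RPKM against 629.4 or more), and its part in the Rab24 difference was not tested. Rab39 (270160), known from phagosomes and autophagy, was at 11, 12 and 12.4 RPKM in cDC1, 4.32, 5.52 and 4.84 in cDC2 and at 6.46, 6.71 and 3.99 in mcDC. Again cDC1 stood apart, with cDC2 and mcDC overlapping. The difference was 1.12 ± 0.19 for cDC1 minus cDC2 (limma adjusted p = 0.0026) and -0.96 ± 0.19 for mcDC minus cDC1 (0.0089, and -0.75 with 0.0049 without mcDC replicate 3). The calls of Rab24 and Rab39 held in all 19 other fits of each comparison. Rab9 and Rab12, which act between late endosomes, the Golgi and lysosomes, had means of 13.9 and 16 RPKM over the 9 libraries and were not called. Rab36 and Rab34, both linked to the position of lysosomes, had means under 1 RPKM.

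The 11 members of the endoplasmic reticulum, the Golgi and early secretory traffic included no call among the 10 tested. The background was 15.4% for mcDC against cDC1, 3.66% for mcDC against cDC2 and 19.6% for cDC1 against cDC2, so few calls would fall among 10 genes. In the same order 4, 1 and 1 of them had an unadjusted limma p below 0.05, beside 3474, 2003 and 3570 of all 11971 genes. Rab1b (Entrez gene 76308), which carries vesicles from the endoplasmic reticulum to the Golgi, was at 80.4, 81.2 and 83.2 RPKM in cDC1, 72.7, 72.2 and 83.8 in cDC2 and at 67.9, 77.3 and 78.1 in mcDC. Its values overlapped between cDC1 and cDC2, and the mcDC libraries lay just below those of cDC1. The difference of cDC1 minus cDC2 was 0.1 ± 0.11 (limma adjusted p = 0.61). Mean levels of Rab1a, Rab2a, Rab6a, Rab30, Rab18 and Rab19 ranged from 13 to 47.2 RPKM, those of Rab2b and Rab6b were 4.19 and 3.3, and Rab39b, known mainly from neurons, was at most 0.475. Rab33b, which binds the autophagy protein Atg16l1 at the Golgi, is singled out here after its values were seen. It was at 14, 13.3 and 12.4 RPKM in cDC1, 7.83, 6.95 and 7.41 in cDC2 and at 6.64, 9.83 and 2.63 in mcDC. The cDC1 libraries lay above all others and mcDC replicate 3 was the lowest. The difference of -1.09 ± 0.33 for mcDC minus cDC1 was not called (limma adjusted p = 0.053), and without mcDC replicate 3 it was -0.64 and called (0.021). For cDC1 minus cDC2 the difference was 0.76 ± 0.33, not called in the fit of all libraries (0.15) and called without mcDC replicate 3 (0.0038).

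Of the 8 members known for regulated exocytosis, the fusion of stored vesicles with the plasma membrane, 5 passed the filter. In mcDC, 1 was called higher than in cDC1 (20%, background 15.4%) and 1 higher than in cDC2 (20%, background 3.66%). Between cDC1 and cDC2, 1 was called higher and 1 lower (40%, background 19.6%). Unadjusted limma p was below 0.05 for 1, 4 and 5 of the 5 in these 3 comparisons, in order. Among all 11971 genes it was so for 3474, 2003 and 3570. Rab44, 1 of the 5, passed the filter only through cDC2. Rab27b, Rab3b and Rab3c stayed at or below 0.164 RPKM in every library. Rab37 (Entrez gene 58222), known from mast cell granules and cytokine secretion, had the largest difference of any member in log2(RPKM + 1), though not the largest ratio of mean RPKM. It was at 2.33, 2 and 3.93 RPKM in cDC1, 9.03, 7.76 and 7.13 in cDC2 and at 12.5, 11.5 and 16.7 in mcDC. None of the 3 groups overlapped, with cDC1 lowest and mcDC highest. mcDC minus cDC1 was 1.97 ± 0.22 (limma adjusted p = 0.0004), a ratio of mean RPKM of 4.92, and 1.82 without mcDC replicate 3 (0.00064). cDC1 minus cDC2 was -1.29 ± 0.22 (limma adjusted p = 0.0027). The step from cDC2 to mcDC, 0.69 ± 0.22, was not called (limma adjusted p = 0.14). Both calls of Rab37 held in all 19 other fits.

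Rab3a (Entrez gene 19339), the Rab of synaptic vesicle release, was the only member called between mcDC and cDC2. It was at 4.95, 3.99 and 3.17 RPKM in cDC1, 2.47, 2.02 and 2.55 in cDC2 and at 4.37, 4.75 and 5.86 in mcDC, from 43 to 103 reads a library. The cDC2 libraries lay below all others, and cDC1 and mcDC overlapped. mcDC minus cDC2 was 0.84 ± 0.19 (limma adjusted p = 0.047), a ratio of mean RPKM of 2.13. The call was lost without cDC1 replicate 2 (0.087), cDC1 replicate 3 (0.06), any cDC2 library (0.13 to 0.21), mcDC replicate 2 (0.093) or mcDC replicate 3 (0.063, a difference of 0.73), and in 8 of the 9 other fits that tested it. Rab26 (328778), linked to secretory granules, was at 3.36, 3.8 and 4.39 RPKM in cDC1, 2.12, 0.786 and 1.01 in cDC2 and at 1.95, 2.13 and 5.42 in mcDC. cDC1 lay above cDC2, and mcDC spanned both through replicate 3. The difference of cDC1 minus cDC2 was 1.11 ± 0.33 (limma adjusted p = 0.04), and the call was lost without any cDC1 library or cDC2 replicate 2 or 3 (0.073 to 0.16), with quantile normalization (0.055) and with no filter (0.054). Its antisense partner Rab26os was at 2.46 to 6.46 RPKM in cDC1, 4.42 to 6.47 in cDC2 and 0 to 7.41 in mcDC, and the reads of the 2 genes cannot be told apart. Rab3d, a Rab of exocrine granules, had group means of 3.82, 6.41 and 5.09 RPKM in cDC1, cDC2 and mcDC and was not called.

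Rab44, a large atypical Rab with calcium-binding EF hands, is also named after its values were seen. It was at 0.265, 0.354 and 0.804 RPKM in cDC1, 0.609, 1.48 and 1.76 in cDC2 and at 0.148, 0 and 0 in mcDC, where replicate 1 held 5 reads and replicates 2 and 3 held none. Every mcDC library lay below those of both other groups. The gene passed the filter only through cDC2 replicates 2 and 3, so a high level in cDC2 was a condition of being tested. mcDC minus cDC2 was -1.09 ± 0.26 (limma adjusted p = 0.056), and the gene was called with quantile normalization (0.046), a pseudocount of 0.1 (0.043), no filter (0.034) or no trend (0.032), and without cDC2 replicate 1 (0.041) or mcDC replicate 1 (0.05). Over the cDC2 replicates the summed level of the neutrophil markers was 125, 900.4 and 1563 RPKM, against 1.41, 18.2 and 42.8 in mcDC and 9.72, 18.1 and 44.2 in cDC1. Of the 8, 5 were called lower in mcDC than in cDC2, and Camp was at 0 in all 3 mcDC libraries. The part of neutrophil RNA in the Rab44 level was not tested.

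Rab32, Rab38 and Rab29 are related Rab proteins, grouped here under lysosome-related organelles. Rab32 and Rab38 are known from such organelles, among them melanosomes. For mcDC against cDC1, mcDC against cDC2 and cDC1 against cDC2, 1, 0 and 2 of the 3 were called (backgrounds 15.4%, 3.66% and 19.6%). In that order 2, 1 and 2 had an unadjusted limma p below 0.05, beside 3474, 2003 and 3570 of all 11971 genes. Rab32 (Entrez gene 67844), which also acts at mitochondria and in the defence against intracellular bacteria, was the member with the largest difference in RPKM. It was at 95.4, 125 and 111 RPKM in cDC1, 37.3, 42.9 and 48.6 in cDC2 and at 41.8, 65.1 and 63.2 in mcDC. All cDC1 libraries lay above the 6 others, and cDC2 and mcDC overlapped. cDC1 minus cDC2 was 1.34 ± 0.19 (limma adjusted p = 0.00076), a ratio of mean RPKM of 2.57. mcDC minus cDC1 was -0.97 ± 0.19 (limma adjusted p = 0.0074), and -1.06 without mcDC replicate 3 (0.0058). mcDC minus cDC2, 0.38 ± 0.19, was not called (0.35). Both calls held in all 19 other fits. Rab38, its closest relative, stayed low, with group means of 5.26, 4.17 and 5.97 RPKM in cDC1, cDC2 and mcDC and no call. Rab29 (226422), a partner of the kinase Lrrk2, was at 21.7, 20 and 19 RPKM in cDC1, 25.9, 32 and 33 in cDC2 and at 27.4, 36.2 and 22.8 in mcDC. Here cDC1 lay below both other groups. cDC1 minus cDC2 was -0.56 ± 0.17 (limma adjusted p = 0.049), and this call was lost without any cDC1 library, cDC2 replicate 2 or 3, or mcDC replicate 1 (0.051 to 0.16), with quantile normalization (0.064), median-of-ratios scaling (0.051), no filter (0.057) and no trend (0.067). The 3 members placed in no compartment here were Rab23, a regulator of Hedgehog signalling, Rab28, known from cilia, and Rab40c, an adaptor of a ubiquitin ligase. They had means of 1.28, 7.13 and 9.76 RPKM. None was called with limma, at backgrounds of 15.4%, 3.66% and 19.6% for mcDC against cDC1, mcDC against cDC2 and cDC1 against cDC2. For mcDC against cDC1, 1 of the 3 had an unadjusted limma p below 0.05, beside 3474 of all 11971 genes.

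The upstream sequence is shown for the 2 members with the largest called rise and the 2 with the largest called fall in cDC1 against cDC2, where the RefSeq promoter table of build GRCm38.p6 has an entry. These are Rab32 and Rab13, higher in cDC1, and Rab24, lower. Rab37, the other member with a large fall, is named only. Each window holds the 250 bases before the most upstream listed start, on the strand of the gene, written 5′ to 3′, and capitals mark a match to 1 of the motifs searched. Rab32 lies at chr10:10558208-10558457 on the minus strand, Rab13 at chr3:90213465-90213714 on the plus strand and Rab24 at chr13:55321981-55322230 on the minus strand.
Rab32: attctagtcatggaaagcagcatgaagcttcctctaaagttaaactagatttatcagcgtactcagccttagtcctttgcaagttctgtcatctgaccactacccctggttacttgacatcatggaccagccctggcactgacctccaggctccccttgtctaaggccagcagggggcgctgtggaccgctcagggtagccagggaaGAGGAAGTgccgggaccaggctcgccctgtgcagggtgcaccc
Rab13: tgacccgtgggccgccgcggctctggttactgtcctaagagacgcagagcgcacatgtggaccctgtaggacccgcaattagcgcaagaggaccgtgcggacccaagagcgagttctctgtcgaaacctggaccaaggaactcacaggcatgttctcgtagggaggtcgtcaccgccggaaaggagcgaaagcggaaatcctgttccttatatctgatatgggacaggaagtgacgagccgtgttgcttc
Rab24: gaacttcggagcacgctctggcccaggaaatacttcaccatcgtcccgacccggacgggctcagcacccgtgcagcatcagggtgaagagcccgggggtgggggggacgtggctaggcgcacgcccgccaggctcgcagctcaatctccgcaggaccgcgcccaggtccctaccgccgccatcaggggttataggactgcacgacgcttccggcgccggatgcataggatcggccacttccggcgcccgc
The motifs were searched on both strands in the windows of 37 of the 47 members and of all 27025 genes in the table. GAGGAAGT, the form bound by PU.1, a factor of myeloid cells, was found in Rab32 and Rab2b (2 of 37, against 2.42% of all windows). CACGTG, the E-box bound by the lysosome regulator Tfeb and by other factors, was found in 4 of 37 (Rab20, Rab21, Rab23 and Rab5a, against 6.04%). The CLEAR element, a longer motif that contains CACGTG, was found in Rab21 and Rab5a (0.255% of all windows). A repeat motif of interferon regulatory factors was found in Rab19 alone (3.05%), and the composite motif of ETS and interferon regulatory factors in Rab11b alone (2.38%). A match describes letters in these windows and no binding was measured. The windows of members had a median of 62.8% G and C and 18 CpG dinucleotides, against 52% and 6 for all genes.

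Several members have a close paralog, and the balance within such pairs was read from the RPKM ratio in each library. Ratios were computed for 8 pairs, of which 4 are printed in full, and these were chosen after the values were seen, and reads of Rab1a and Rab1b, of Rab5a, Rab5b and Rab5c, and of Rab8a and Rab8b could have been split between them in counting, so the ratios are uncertain. Rab8a over Rab8b stood at 1.2, 1.05 and 1.47 across cDC1, 2.16, 2.4 and 2.54 in cDC2 and at 1.66, 1.82 and 3.19 in mcDC. The cDC1 libraries lay below all others. Rab1b over Rab1a stood at 2, 2.12 and 1.97 across cDC1, 1.68, 1.47 and 1.61 in cDC2 and at 1.74, 1.41 and 1.19 in mcDC, with cDC1 above all others. Rab32 over Rab38 stood at 19, 24.9 and 19.3 across cDC1, 7.73, 11.1 and 12.7 in cDC2 and at 6.97, 13.3 and 9 in mcDC, also with cDC1 above the rest. Rab5c over Rab5a stood at 3.06, 3.21 and 3.47 across cDC1, 3.64, 4.37 and 4.2 in cDC2 and at 3.16, 3.27 and 4.06 in mcDC, where cDC1 lay below cDC2 and overlapped mcDC. In the other 4 pairs cDC1 did not stand apart from both groups. Rab5c over Rab5b ran from 2.51 to 2.88 in cDC1 and from 2.1 to 2.81 in cDC2, Rab2a over Rab2b from 12.3 to 13.1 and from 8.78 to 13.4, and Rab6a over Rab6b from 5.83 to 52.8 and from 5.73 to 11.3. Rab4b over Rab4a has no value in 2 libraries where Rab4a is at 0. With 3 libraries a group an exact permutation test cannot go below p = 0.1, so the ratios are given without a test.

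**Figure D4:**
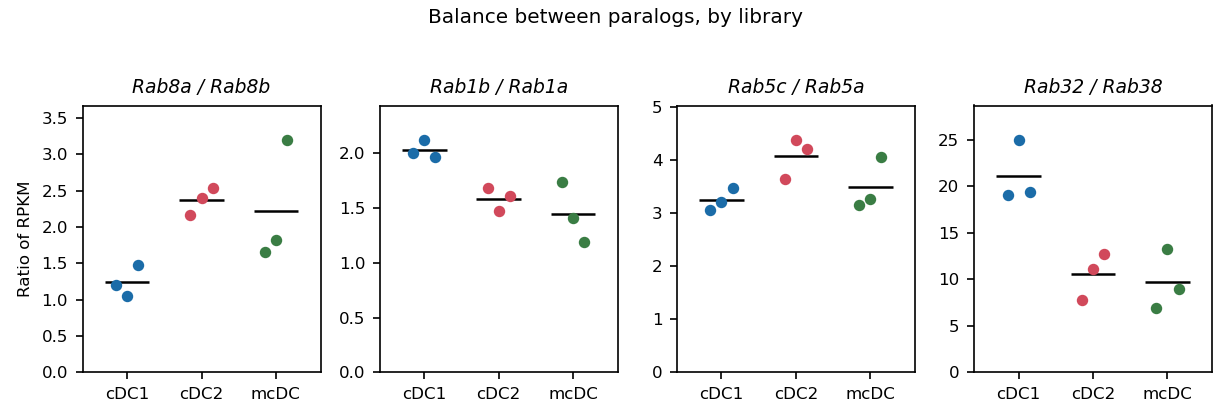
Ratio of RPKM between 2 Rab paralogs (vertical axes, each from 0) in each library (points) by subset (horizontal axes), with the mean as a bar. The 3 cDC1 points lie below all others for Rab8a over Rab8b and above all others for Rab1b over Rab1a and Rab32 over Rab38.

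The proteins that load, switch off, deliver and read Rab GTPases were taken from a list of 138 genes in the table, of which 124 were tested. Between cDC1 and cDC2, 12 were called higher in cDC1 and 11 lower (18.5%, background 19.6%). Between mcDC and cDC1, 12 were higher in mcDC and 5 lower (13.7%, background 15.4%), a split that turned to 8 and 9 with median-of-ratios scaling, 9 and 8 with quantile normalization and 10 and 11 with voom on recovered reads. Between mcDC and cDC2, 2 were higher in mcDC and none lower (1.61%, background 3.66%). The median difference was 0 or within 0.02 of 0 in each comparison. Without cDC1 replicate 2 or without cDC1 replicate 3 the count between mcDC and cDC1 was 8. Between cDC1 and cDC2 it was 11 without cDC1 replicate 2, 13 without cDC2 replicate 2, 15 without cDC1 replicate 3 and 40 without mcDC replicate 3. Between mcDC and cDC2 it was 0 without any 1 of the 3 cDC2 libraries or without mcDC replicate 2, and 1 without any 1 of the 3 cDC1 libraries. These counts too stand without the share of all genes in the same fit.

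Of the 35 exchange factors tested, 5 were higher and 5 lower in cDC1 than in cDC2 (28.6%, background 19.6%), and 5 were higher and 3 lower in mcDC than in cDC1 (22.9%, background 15.4%). Rin2, an exchange factor of the Rab5 group, was at 7.31, 3.31 and 2.68 RPKM in cDC1, 26, 24.6 and 21.9 in cDC2 and at 23, 16.2 and 11.2 in mcDC. Its cDC1 libraries lay below all others, with differences of -2.3 ± 0.32 for cDC1 minus cDC2 (limma adjusted p = 0.00076) and 1.75 ± 0.32 for mcDC minus cDC1 (0.0055, and 2 with 0.0025 without mcDC replicate 3). Its relative Rin3 was at 33.4, 31.9 and 31.8 RPKM in cDC1, 60.1, 72.2 and 77.9 in cDC2 and at 47.9, 53.5 and 76.8 in mcDC. cDC1 again lay lowest (cDC1 minus cDC2 -1.08 ± 0.17, limma adjusted p = 0.0019). Als2cl, a further exchange factor linked to Rab5, went the other way. It was at 17.8, 24.3 and 23.5 RPKM in cDC1, 9.62, 8.2 and 8.06 in cDC2 and at 8.69, 9.6 and 5.26 in mcDC, with cDC1 highest (1.24 ± 0.21 against cDC2, limma adjusted p = 0.0027, and mcDC minus cDC1 -1.4 ± 0.21, 0.0022, or -1.16 with 0.0012 without mcDC replicate 3). Dennd3, an exchange factor for Rab12, was lower in cDC1 than in cDC2 (-1.4 ± 0.36, limma adjusted p = 0.023) and higher in mcDC than in cDC1 (1.66 ± 0.36, 0.014, and 1.89 with 0.0079 without mcDC replicate 3). The first call was lost without cDC1 replicate 2 or 3 or cDC2 replicate 1 or 2 (0.072 to 0.089), and the second without cDC1 replicate 2 (0.061) or 3 (0.052). Dennd2d, a protein of the same DENN domain family, was called in all 3 comparisons. It was at 10.9, 11.4 and 10.2 RPKM in cDC1, 2.34, 2.99 and 3.22 in cDC2 and at 5.12, 6.89 and 7.12 in mcDC, so that the 3 groups did not overlap and mcDC lay between. mcDC minus cDC2 was 0.93 ± 0.17 (limma adjusted p = 0.017) and mcDC minus cDC1 -0.69 ± 0.17 (0.023), or 0.86 (0.025) and -0.76 (0.012) without mcDC replicate 3. The first was lost without any cDC2 library or mcDC replicate 2 (0.052 to 0.079) and with the 2 groups fitted alone (0.085), and the second without any cDC1 library or mcDC replicate 1 (0.051 to 0.098) and with the 2 groups fitted alone (0.062).

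**Figure D5:**
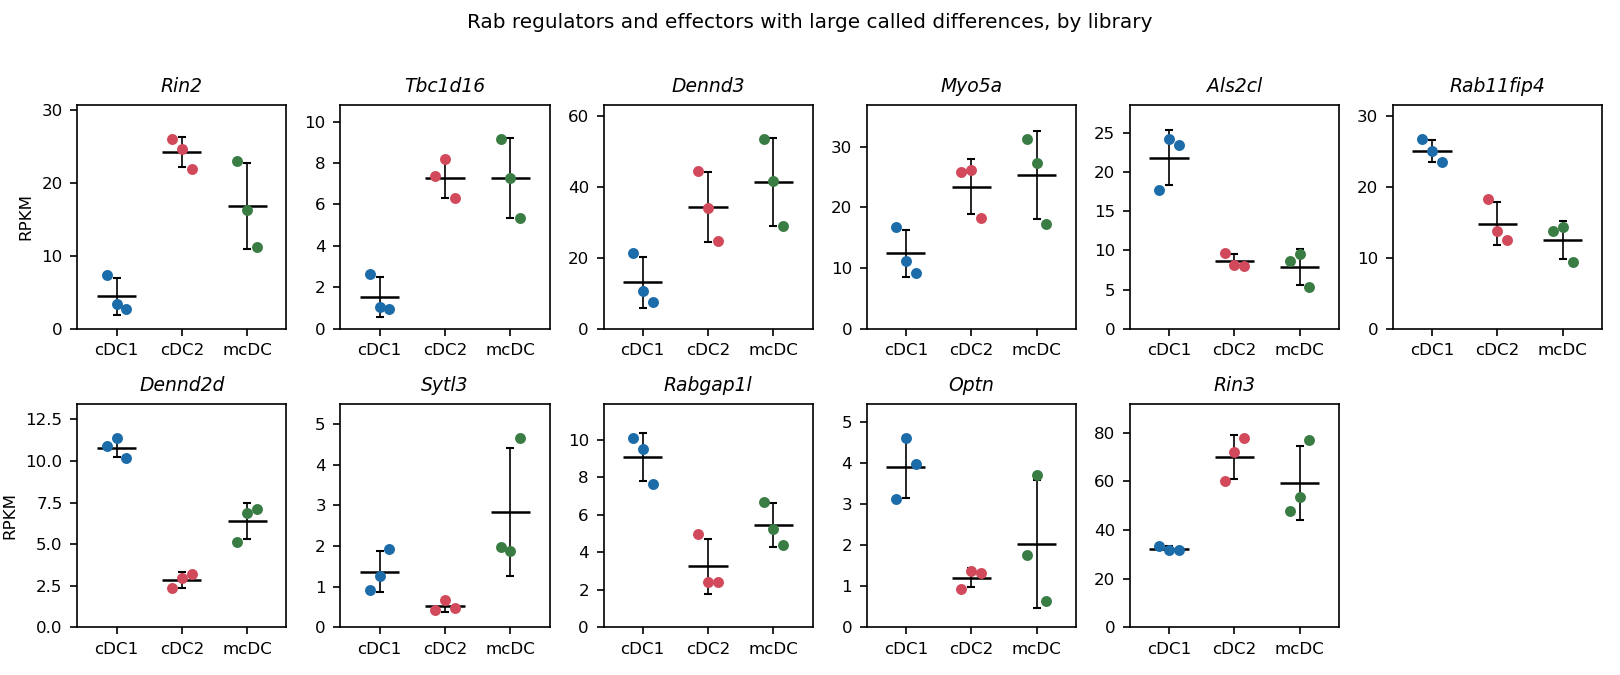
Level in RPKM (vertical axes, each from 0) of 11 regulators and effectors of Rab GTPases with large called differences, by subset (horizontal axes), with 1 point a library, the mean as a bar and 1 SD as whiskers. The cDC1 points lie below those of cDC2 and mcDC for Rin2, Tbc1d16, Rin3, Dennd3 and, narrowly, Myo5a and above them for Als2cl, Rab11fip4, Dennd2d and Rabgap1l.

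Of the 33 GTPase activating proteins tested, 3 were higher and 4 lower in cDC1 than in cDC2 (21.2%, background 19.6%), and 5 were higher and 1 lower in mcDC than in cDC1 (18.2%, background 15.4%, or 9.53% higher and 5.88% lower). Tbc1d16, known to act on Rab4a, was at 2.65, 1.04 and 0.943 RPKM in cDC1, 7.36, 8.18 and 6.29 in cDC2 and at 9.17, 7.29 and 5.34 in mcDC. All cDC1 libraries lay below the others, and the difference was -1.76 ± 0.27 for cDC1 minus cDC2 (limma adjusted p = 0.0015) and 1.74 ± 0.27 for mcDC minus cDC1 (0.0026, and 1.91 with 0.0016 without mcDC replicate 3). Rabgap1l was higher in cDC1 than in cDC2 by 1.28 ± 0.25 (limma adjusted p = 0.0053). Among 48 effectors tested, 4 were higher and 2 lower in cDC1 than in cDC2 (12.5%, background 19.6%), 2 were higher and 1 lower in mcDC than in cDC1 (6.25%, background 15.4%), and 1 was higher in mcDC than in cDC2 (2.08%, background 3.66%). The effector of Rab11 called Rab11fip4 was lower in mcDC than in cDC1 (-0.97 ± 0.19, limma adjusted p = 0.0072, and -0.8 with 0.0071 without mcDC replicate 3). It was also lower in cDC2 than in cDC1 (cDC1 minus cDC2 0.74 ± 0.19, limma adjusted p = 0.021). Myo5a, a myosin motor recruited by several Rab proteins, was higher in mcDC than in cDC1 (0.97 ± 0.27, limma adjusted p = 0.036, and 1.22 with 0.0071 without mcDC replicate 3), a call lost without cDC1 replicate 2 or 3, cDC2 replicate 1 or 2, or mcDC replicate 1 or 2 (0.052 to 0.13), with median-of-ratios scaling (0.058) and with the 2 groups fitted alone (0.079). Myo5a was also higher in cDC2 than in cDC1 (cDC1 minus cDC2 -0.89 ± 0.27, limma adjusted p = 0.043). Whether the calls of Rab11fip4 and Myo5a between cDC1 and cDC2 held in the other fits is not given here. Optn, a partner of Rab8, was higher in cDC1 than in cDC2 (1.14 ± 0.34, limma adjusted p = 0.043), a call lost without any 1 of the 6 libraries compared (0.064 to 0.15), with a pseudocount of 0.1 (0.065) and with no filter (0.056). Sytl3, an effector of Rab27, was at 0.915, 1.27 and 1.92 RPKM in cDC1, 0.421, 0.672 and 0.467 in cDC2 and at 1.98, 1.88 and 4.66 in mcDC. Its mcDC libraries lay above those of cDC2 (1.27 ± 0.29, limma adjusted p = 0.048, and 0.95 with 0.045 without mcDC replicate 3), and the call was lost without any 1 of the cDC1 or cDC2 libraries or mcDC replicate 2 (0.06 to 0.17), and with quantile normalization (0.11), median-of-ratios scaling (0.057), the 2 groups fitted alone (0.11) and voom on recovered reads (0.074). The sum of 6 NK cell markers was likewise higher in mcDC, 58.8 to 145.7 RPKM against 24.3 to 43.3 in cDC2, with none at 0, and its part in the Sytl3 and Rab3a levels was not tested. None of the 8 chaperones and prenylation enzymes was called with limma, at backgrounds of 15.4%, 3.66% and 19.6% for mcDC against cDC1, mcDC against cDC2 and cDC1 against cDC2. In that order 2, 0 and 2 had an unadjusted limma p below 0.05, beside 3474, 2003 and 3570 of all 11971 genes. Gdi2, the dissociation inhibitor that keeps Rab proteins soluble, was the most abundant of them, with 283 ± 14.4, 299 ± 18.2 and 299.8 ± 37.9 RPKM (SD, n = 3) in cDC1, cDC2 and mcDC.

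Of the Rab genes left out of the family as taken here, Rab43 averaged 288 ± 22.8, 130.2 ± 7.93 and 147 ± 15 RPKM in cDC1, cDC2 and mcDC (SD, n = 3), Rab7b 112 ± 14.1, 8.6 ± 4.24 and 47.5 ± 19.1, and Rab11a 46 ± 2.08, 25 ± 3.43 and 32.9 ± 4.56. Rab14 averaged 56.2 ± 4.25, 62.3 ± 0.649 and 62.8 ± 1.38 RPKM and Rab27a 9.56 ± 0.254, 13.7 ± 2.89 and 11.7 ± 3.63. Of these 5, Rab7b (3.67 ± 0.4, limma adjusted p = 0.00018), Rab43 (1.14 ± 0.12, 0.00015) and Rab11a (0.86 ± 0.14, 0.0019) were called higher in cDC1 than in cDC2, the first by more than any member. Rab7b was also called higher in mcDC than in cDC2 (2.36 ± 0.4, limma adjusted p = 0.012). Rab43 (-0.97 ± 0.12, limma adjusted p = 0.0007) and Rab11a (-0.48 ± 0.14, 0.045) were called lower in mcDC than in cDC1. The counts of members above do not include any of these calls, and the summed level of the members does not include these genes.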

How the data were processed

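RNA sequencing of 9 spleen dendritic cell libraries was used, 3 each of cDC1, cDC2 and mcDC. The authors deposited 1 table with the RPKM values of 14862 genes in the 9 libraries, plus 8 single-library files identical to their columns. No file names its unit. RPKM was inferred from the spacing of the values: 100% of nonzero values were whole reads within 0.02. The libraries were made with a directional kit, per the labels' protocols. Per the submitters' processing notes the build was mm8. The aligner, the counting tool, its use of strand and the gene annotation are not given in the sources used here. There were 0 columns of other samples.

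Groups came from the cell type label, and replicate numbers follow accession order. The 9 libraries were fitted in limma 3.58.1 (R 4.3.3) on log2(RPKM + 1) with 1 coefficient per group and an intensity trend for the prior. Genes had to exceed 1 RPKM in 2 or more libraries, which left 11971. Residual degrees of freedom were 6 and the standard error had a median of 0.209. Adjustment ran over all genes tested by the method of Benjamini and Hochberg, with a threshold of 0.05. Differences on this scale understate ratios of low genes, whose precision is limited by depth: a single read per kb stood for 0.0805 to 0.1945 RPKM. Ratios of mean RPKM are given apart.

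Alternatives were quantile normalization, median-of-ratios scaling, no filter or one of 5 RPKM, 0.1 as pseudocount, the 2 groups fitted alone, no trend, the title run as a replicate block with and without mcDC replicate 3, voom on recovered reads, and each library left out in turn. The test was also run on simulated reads, with 200 changed genes of a mean above 5 RPKM in each of 5 draws a comparison. It recovered 50.2% to 54.2% of 2-fold changes and 89% to 90.2% of 4-fold changes. Of its calls, 3.9% to 5.8% were false. The simulated scatter was drawn for each gene on its own. A gene not called may thus still differ by 2-fold. The members, the gene lists and these choices were made with earlier results of these data known. Library values are given for members called in at least 1 comparison and the 6 of highest mean, and for each comparison up to 4 regulators called with the largest rise and 4 with the largest fall are named, except 1 that is not reported here. Tables were handled in Python 3.11.15 with pandas 2.3.3 and numpy 2.4.6, and figures drawn with matplotlib 3.10.9.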

Additional observations from a re-analysis of the deposited data

How the results depend on the processing

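Over 1019 combinations of a named gene, a comparison and an alternative fit, none reversed a call, 102 lost one and 26 gained one. The other 891 left the call, or its absence, as it was. They include genes not called in the main fit, which had no call to lose. With the 2 groups fitted alone, 4, 0 and 14 members were called for mcDC against cDC1, mcDC against cDC2 and cDC1 against cDC2, in place of 7, 1 and 9, and 9, 0 and 41 regulators and effectors in place of 17, 2 and 23. Between mcDC and cDC2 the count of members was 0 with median-of-ratios scaling, a filter of 5 RPKM (which leaves Rab3a untested) and voom, and 2 with no trend, and that of regulators was 1 with quantile normalization, median-of-ratios scaling, the 5 RPKM filter and voom. On the recovered reads voom called 8, 0 and 10 members. Leaving out 1 library gave 4 to 9, 0 to 2 and 5 to 15 members, and 8 to 24, 0 to 3 and 11 to 40 regulators. The cause was not tested. Shares of all genes called in the alternative fits are not given here, so none of these counts is set against its background. Library titles run in 3 sets of consecutive numbers, each with 1 library of every subset, and what a set shares is not stated. Deviations from group means correlated at 0.098 to 0.46 within sets over 11971 genes and at -0.45 to 0.03 between them, and 9 of 9 libraries correlated best with their own set. Deviations within a group sum to 0, so positive values within sets bring negative ones between them, and the latter are not separate evidence. As the replicate block this set gave 9, 0 and 11 members and 28, 4 and 32 regulators, and without mcDC replicate 3 as well 11, 0 and 16 members and 31, 3 and 46 regulators. Low depth in mcDC replicates 2 and 3 limits what could be called there for members under 1 RPKM.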
